A study of Mus musculus with 12 samples.

Results

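The R6/1 striatum was compared with the wild-type (wt) striatum, by gene expression, in 6 of the 12 libraries of the series. The members were all genes with at least 10 counts over these 6 libraries, which left 16728 of the 17579 deposited genes. The 851 others were at 0 in all 6. R6/1 mice carry a transgene made of the first exon of human huntingtin with a lengthened CAG repeat, are a model of Huntington's disease (HD), and were compared with their wt littermates. All animals were male C57Bl/6 mice (the J substrain, by the methods of the study) of 13 to 15 weeks. Each library was a pool of striatal RNA from 3 or 4 mice, so n = 3 pools per genotype, every SD is the spread between pools, and the spread between mice was not measured. The endogenous mouse gene Htt was at 152, 159.5 and 169 CPM in wt and 165, 178 and 179.6 CPM in R6/1 (log2 fold change 0.12, SE 0.07, adjusted p = 0.361). Reads of the transgene were not analysed here, so Htt is no check of the genotype.

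The striatum is the input station of the basal ganglia. Most of its neurons are medium spiny neurons (MSNs), GABAergic projection cells that receive cortical glutamate and midbrain dopamine. Indirect-pathway MSNs carry the dopamine receptor Drd2 and the adenosine receptor Adora2a and make enkephalin, and direct-pathway MSNs carry the D1 dopamine and M4 muscarinic receptors and make dynorphin and substance P. Both kinds read dopamine through cyclic AMP, protein kinase A and the phosphatase inhibitor DARPP-32. MSNs are the cells most affected in HD, while cholinergic and other interneurons form a small share of the striatal neurons. In bulk tissue, fewer cells of a type and less RNA per cell cannot be told apart, and this holds for every result here.

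Total counts were 17206379 to 20159277 in the wt pools and 15885261 to 22432431 in the R6/1 pools. Levels are CPM, counts scaled to the library total with TMM factors, fold changes are log2 of R6/1 over wt, and a gene was called at an adjusted p under 0.05 over all genes tested by the quasi-likelihood test of edgeR. Markers of striatum were present in every pool, the summed CPM of 30 genes shared by MSNs being at least 4119. The wt pool numbered 2 lay closer to the R6/1 pools (mean Spearman correlation 0.9930 over genes) than to the other wt pools (0.9916). The 2 pools numbered 2 also shared high levels of genes from neighbouring regions. Of 13850 genes with a mean of at least 1 CPM, 21 were over 2 times every other library in both pools numbered 2, against 1 for the pools numbered 1 and 0 for those numbered 3. Lhx9, a transcription factor of thalamic neurons, was at 0.235, 10.1 and 0.604 CPM in wt and 0.0613, 16.1 and 0.541 CPM in R6/1. The summed CPM of 13 markers of septal, pallidal and thalamic neurons was 132.5, 277.2 and 140.2 in wt and 136.9, 384.7 and 126.6 in R6/1. The R6/1 pool numbered 3 had a high level of Ttr, the transthyretin gene of the choroid plexus, at 2.94, 10.01 and 2.11 CPM in wt and 6.80, 12.9 and 128 CPM in R6/1. The deviations of pools that share a number were positively correlated (under the methods). However, wt 1 correlated as highly with R6/1 3 as with R6/1 1, and no label states what the number marks. Results are therefore given from the fit of genotype alone and, where the call or a count moved, with the replicate number as a block.

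More genes were lower than higher in the R6/1 striatum. In the fit of genotype alone, 220 genes were downregulated, 1.32% of those tested, and 22 were upregulated, 0.132% (1.45% in either direction). At an unadjusted p under 0.05, 1923 of the 16728 genes tested were lower and 1395 higher. Counts of list members at an unadjusted p under 0.05, given below, are to be read beside these. Of the downregulated genes, 75 fell at least 2-fold, and 21 of these fell by more than 2 on the log2 scale. A further 109 lay between 0.5 and 1, and 36 below 0.5. Of the upregulated genes, 2 rose at least 2-fold. Protein-coding genes made up 236 of the 242 calls. Every one of the 242 calls had non-overlapping pools. Over all genes tested, 12.9% had all wt pools above all R6/1 pools and 12.5% the reverse. The median log2 fold change was −0.77 among the downregulated and 0.51 among the upregulated genes. The downregulated and the upregulated genes were both well expressed. Their median wt levels were 46.2 and 44.15 CPM, against 16.7 CPM over all genes.

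With the replicate number as a block, 1190 genes were downregulated (7.11% of those tested) and 473 upregulated (2.83%, with 9.94% in either direction), of which 171 and 24 changed at least 2-fold. This set held 218 of the 220 genes downregulated without the block (99.1%), and all 22 upregulated ones, which were 18.3% and 4.65% of the larger lists. The 2 genes lost, named here after their values were seen, were Lynx1 and Fam107a. The differences were smaller, with a median of −0.48 (log2) among the genes called lower and 0.35 among those called higher. Of the genes called with the block, 300 lower and 10 higher ones were also called in each of the 3 fits that left out both libraries of 1 number. Those fits keep 2 pools per genotype and lean heavily on spread shared between genes. DESeq2, without the block, called 805 lower (4.81%) and 177 higher (1.06%, 5.87% in either direction), including 218 and 22 of the calls above. The split depends on the scaling. With library totals in place of TMM factors the median of all genes shifted to 0.12, and 209 genes were called lower and 220 higher.

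Many calls of the fit of genotype alone also ended when 1 library was left out. Such a fit sets 2 pools against 3, and the part of the smaller number of pools in these losses was not tested. Ryr1 was the one gene called with every library left out in turn. Without wt replicate 1, all other 241 calls ended (adjusted p = 0.0677 to 0.252), 237 ended without wt replicate 3 (0.0664 to 0.195), and 236 without R6/1 replicate 1 (0.052 to 0.188). Without R6/1 replicate 3, 215 ended (0.0509 to 0.165), and without R6/1 replicate 2, 87 ended (0.0501 to 0.119). Slc9a5, Phex, Abhd11os and Gpx6 ended only without wt replicate 1 among these 6 fits. Leaving out wt replicate 2 did the reverse. All 242 calls were kept, and 1201 genes were called lower (7.25%) and 715 higher (4.32%). In what follows, an ended call means the loss of a call in one or more of these fits, and the value beside it is the highest adjusted p they gave.

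**Figure D1:**
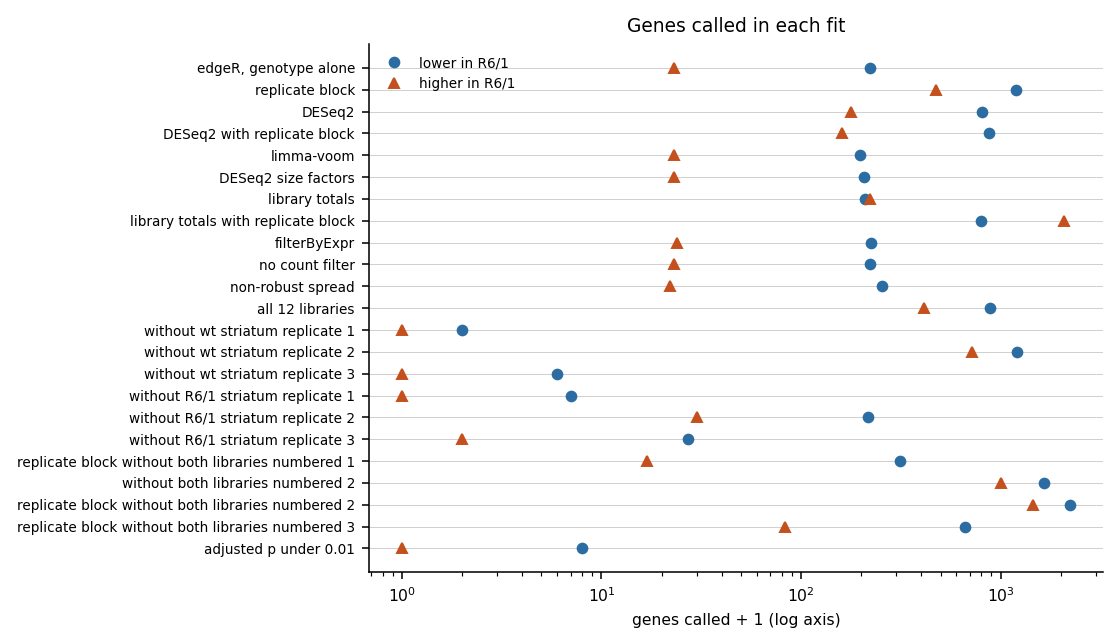
Number of genes called lower and higher in R6/1 than in wt striatum under each fit, at an adjusted p under 0.05 (0.01 in the lowest row). The x axis is the number of genes plus 1 on a log axis, each row is 1 fit, circles are genes lower and triangles genes higher in R6/1. The counts run from 1 lower and 0 higher without wt replicate 1 to 2221 lower and 1455 higher with the replicate block and without both pools numbered 2.

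**Figure D2:**
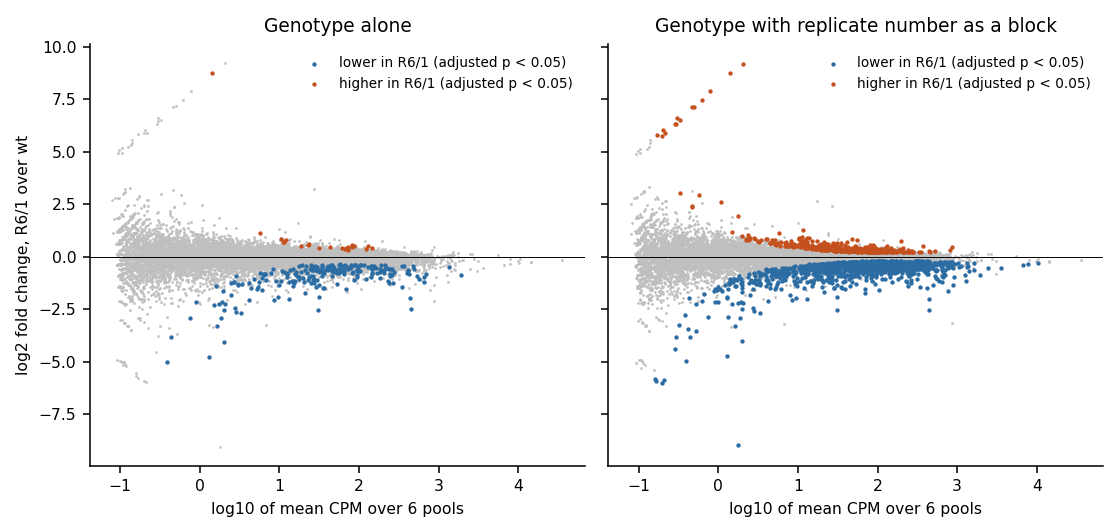
Log2 fold change of R6/1 over wt striatum against log10 of the mean CPM for the genes tested, each point 1 gene, without (left) and with (right) the replicate number as a block. Coloured points are the genes called, 220 lower (blue) and 22 higher (orange) on the left, and 1190 and 473 on the right.

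Ryr1 (the ryanodine receptor of skeletal muscle, also a calcium release channel of MSN endoplasmic reticulum; ENSMUSG00000030592, chromosome 7 from 29003344 to 29125179 on GRCm38) had the smallest p. Its level was 51.99, 48.4 and 56.8 CPM in wt and 7.79, 8.45 and 10.7 CPM in R6/1, and the highest R6/1 pool lay far under the lowest wt pool. It fell by 2.54, SE 0.12, adjusted p = 8.23e-05 (log2; from wt to R6/1, mean and SD over 3 pools 52.4 ± 4.21 to 8.98 ± 1.53 CPM), and its adjusted p was 0.00562 at most with 1 library left out. Gpx6, a glutathione peroxidase, was at 3.24, 1.90 and 2.35 CPM in wt and 0.0613, 0.084 and 0.108 CPM in R6/1. It was near absent in all R6/1 pools and fell by 4.76 on the log2 scale (SE 0.43, adjusted p = 0.00521). Abhd11os, a long noncoding RNA beside the hydrolase gene Abhd11, was at 4.06, 3.20 and 4.05 CPM in wt and 0.123, 0.168 and 0.379 CPM in R6/1. It fell by 4.04 (SE 0.36, adjusted p = 0.00521). Phex, a membrane endopeptidase known from phosphate balance, was at 6.89, 5.61 and 4.65 CPM in wt and 1.10, 0.588 and 1.03 CPM in R6/1 and fell by 2.68 (SE 0.27, adjusted p = 0.00785). Slc9a5, a neuronal sodium-proton exchanger, was at 37.9, 34.4 and 37.6 CPM in wt and 19.1, 17.6 and 16.6 CPM in R6/1. The log2 difference was −1.04, SE 0.086, adjusted p = 0.00462. Without wt replicate 1 the calls of Gpx6, Abhd11os, Phex and Slc9a5 ended (adjusted p = 0.0677 to 0.0741). The groups of each did not overlap, which the rule for naming them required.

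The other genes among the 20 with the smallest p and lower levels belonged to several families. Fgf3, a fibroblast growth factor, was at 3.42, 2.65 and 4.11 CPM in wt and 0.552, 0.462 and 0.757 CPM in R6/1, and it fell by 2.52 on the log2 scale (SE 0.30, adjusted p = 0.0114). St8sia2, a sialyltransferase that builds polysialic acid on neural adhesion molecules, was at 15.7, 14.02 and 13.2 CPM in wt and 4.29, 6.60 and 5.57 CPM in R6/1 and fell by 1.37 (SE 0.16, adjusted p = 0.0114). Fgf3 was expressed at a low level. For both genes no R6/1 pool reached a wt pool, which the rule for naming them required. Traip, a ubiquitin ligase of the replication fork, was at 31.9, 25.5 and 28.98 CPM in wt and 12.1, 11.3 and 14.01 CPM in R6/1 (log2 fold change −1.21, SE 0.12, adjusted p = 0.00785). Trank1, the most abundant gene in this set, was at 538, 479 and 603 CPM in wt and 289, 304 and 314 CPM in R6/1 (log2 fold change −0.84, SE 0.093, adjusted p = 0.0112). Pdp1, which activates pyruvate dehydrogenase by removing phosphate, was at 206, 159.6 and 187 CPM in wt and 105, 109 and 104 CPM in R6/1 (log2 fold change −0.80, SE 0.093, adjusted p = 0.0114). The kinase gene Camk1g, the contactin-associated protein Cntnap3, the actin regulator Wipf3, the activin-type receptor Acvrl1, the protease Htra1, the ciliary rootlet gene Crocc and Fam184b also fell, with log2 fold changes of −1.17, −1.13, −0.78, −1.06, −0.78, −0.78 and −0.98. All of these calls ended on leaving out wt replicate 1, and likewise wt replicate 3 or R6/1 replicate 1 (adjusted p up to 0.0976), and all were kept with the block.

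Arpp19, Gpr83, Homer1, Inhba, Acvr1c and Ddn were among the 20 lower genes with the smallest p-values in the fit with the block. Arpp19, a small phosphoprotein regulated by protein kinase A, was at 608, 370.3 and 529 CPM in wt and 212, 140.1 and 205 CPM in R6/1, lowest in the pool numbered 2 of each genotype. The log2 difference was −1.43, SE 0.061, adjusted p = 1.45e-06. Gpr83, a G protein-coupled receptor, was at 89.6, 59.8 and 78.7 CPM in wt and 34.5, 24.6 and 32.5 CPM in R6/1 (with the block −1.31, SE 0.065, adjusted p = 2.83e-06). Homer1, a scaffold that ties metabotropic glutamate receptors to calcium stores, was at 354, 242 and 347 CPM in wt and 156, 112 and 153 CPM in R6/1 (log2 fold change with the block −1.15, SE 0.057, adjusted p = 2.83e-06). Inhba, the activin A subunit, was at 39.2, 22.6 and 35.4 CPM in wt and 10.9, 7.48 and 11.4 CPM in R6/1 (with the block −1.69, SE 0.095, adjusted p = 6.05e-06), and the receptor Acvr1c of the same family was at 117, 73.3 and 105 CPM in wt and 52.8, 30.5 and 53.4 CPM in R6/1 (with the block −1.13, SE 0.07, adjusted p = 9.79e-06). Ddn, or dendrin, a dendritic and postsynaptic protein, was at 1103, 693 and 919 CPM in wt and 428, 307 and 432 CPM in R6/1 (with the block −1.21, SE 0.069, adjusted p = 6.05e-06). Within each genotype the pool numbered 2 was the lowest for all 6 of these genes. Acvr1c missed the threshold without the block (adjusted p = 0.106). The others were called in both fits, and without the block their calls ended with 1 library left out, wt replicate 1 among them (adjusted p up to 0.173).

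The promoters of 4 genes are shown here because their genes are striatal signalling genes described with large decreases. Each is the stretch of 250 bases before the RefSeq start on GRCm38.p6, read 5′ to 3′ on the strand of the gene, and capitals mark the motifs found in it.
Ryr1, chr7:29125152-29125401, minus strand: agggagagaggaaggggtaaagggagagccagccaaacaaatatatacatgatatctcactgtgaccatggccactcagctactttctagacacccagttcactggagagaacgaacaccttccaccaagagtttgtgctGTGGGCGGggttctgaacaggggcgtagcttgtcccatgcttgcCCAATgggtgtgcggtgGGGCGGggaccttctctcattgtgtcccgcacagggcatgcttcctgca
Homer1, chr13:93303507-93303756, plus strand: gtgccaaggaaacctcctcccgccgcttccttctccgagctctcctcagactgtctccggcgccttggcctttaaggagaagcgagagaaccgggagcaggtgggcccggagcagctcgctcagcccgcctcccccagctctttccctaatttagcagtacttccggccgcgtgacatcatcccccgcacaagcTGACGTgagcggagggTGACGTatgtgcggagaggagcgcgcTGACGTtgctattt
Rgs4, chr1:169747643-169747892, minus strand: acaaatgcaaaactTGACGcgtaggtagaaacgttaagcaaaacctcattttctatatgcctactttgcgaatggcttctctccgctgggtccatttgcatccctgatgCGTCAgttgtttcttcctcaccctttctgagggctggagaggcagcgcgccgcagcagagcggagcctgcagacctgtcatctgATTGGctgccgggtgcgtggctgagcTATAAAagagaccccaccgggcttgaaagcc
Scn4b, chr9:45138374-45138623, plus strand: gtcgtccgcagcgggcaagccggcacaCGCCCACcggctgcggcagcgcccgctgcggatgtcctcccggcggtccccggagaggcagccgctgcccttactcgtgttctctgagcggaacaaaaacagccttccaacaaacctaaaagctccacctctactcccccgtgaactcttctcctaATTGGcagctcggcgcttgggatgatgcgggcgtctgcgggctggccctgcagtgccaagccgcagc
The Homer1 window held the cAMP response core TGACGT at 3 places, 56, 40 and 14 bases before the start. The Rgs4 window held a TATA box (TATAAA) 31 bases before the start, a CCAAT box on the other strand, and TGACG, the shorter cAMP response core, on each strand. In the Ryr1 window, an EGR core (GTGGGCG) overlapped a GC box (GGGCGG), with a second GC box and a CCAAT box nearer the start. Scn4b had an EGR core and a CCAAT box, both on the other strand. A match is a description of letters and says nothing about binding.

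Motifs were counted on both strands in windows of 300 bases, from 250 before to 50 after the start, for the 12314 genes tested that had one (73.6%). TGACGT, which contains the shorter core TGACG, was in 10.7% of all windows. It was in 5.66% of the 159 windows found for downregulated genes, and in 8.35% of the 862 for genes called lower with the block. TGACG was in 29.0%, 22.6% and 25.5% of the same sets. The EGR core was in 13.5%, 12.6% and 13.9%, the E box CACGTG in 9.51%, 8.81% and 8%, and the TATA box in 7.93%, 6.29% and 8.12%. Of 22 windows of shared MSN genes, 0 held TGACG, and the EGR core was in 27.3% of them. TGACGT was in 23.1% of the 13 windows of upregulated genes and in 13.3% of the 361 called higher with the block. The GC box GGGCGG was in 60.5% of all windows and 56.6% of those of downregulated genes. The CCAAT box was in 38.5% and 35.2%, the AP-1 site TGACTCA in 3.62% and 5.03%, the E2F core TTCCCGC in 7.81% and 4.40%, and the nuclear receptor core AGGTCA in 12.3% and 11.9%. These shares are descriptions and were not tested.

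The genes shared by both kinds of MSN had a median log2 fold change of −1.05 over 30 tested, against 0.01 over all genes. Of them, 8 were downregulated, and 21 with the block (13 to 28 with both libraries of 1 number left out), with 0 upregulated in either fit. Their summed CPM was 14740, 10560 and 12110 in wt and 6912, 4119 and 6784 in R6/1, so the lowest wt pool was above the highest R6/1 pool. This list was chosen with earlier results of these data known and is no independent evidence of its direction. Scn4b, the beta 4 sodium channel subunit behind resurgent current, was at 952, 547 and 784 CPM in wt and 154, 78.7 and 169.5 CPM in R6/1 and fell by 2.51 on the log2 scale (SE 0.35, adjusted p = 0.0385). Rasgrp2, an exchange factor for the small GTPase Rap1, was at 126, 109 and 119 CPM in wt and 59.03, 40.9 and 62.1 CPM in R6/1 (log2 fold change −1.13, SE 0.15, adjusted p = 0.0235). Hpca, or hippocalcin, a neuronal calcium sensor, was at 884, 674 and 728 CPM in wt and 428, 272 and 405 CPM in R6/1 (log2 fold change −1.05, SE 0.18, adjusted p = 0.0473). Ptpn5, the striatum-enriched phosphatase STEP, was at 363, 324 and 329.6 CPM in wt and 227, 169.6 and 226 CPM in R6/1 (log2 fold change −0.71, SE 0.12, adjusted p = 0.0289). Arpp19, Cnr1, Kcnip2 and Ryr1 were the other members called. All but Ryr1 ended with 1 library left out, such as wt replicate 1 (adjusted p up to 0.192).

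Several of the best known MSN genes passed the test with the block and not without it. Pde10a, the main striatal phosphodiesterase, was at 1386, 936 and 1142 CPM in wt and 460.0, 236 and 458 CPM in R6/1. All R6/1 pools were below all wt pools, and its log2 fold change was −1.58 (adjusted p = 0.0651, with the block 0.00244). Ppp1r1b, which encodes DARPP-32, was at 862, 600.5 and 677 CPM in wt and 375, 169 and 331 CPM in R6/1 (adjusted p = 0.106, with the block 0.0425). Adcy5, the adenylyl cyclase of MSNs, was at 964, 675 and 833 CPM in wt and 428, 272 and 430.1 CPM in R6/1 (log2 fold change −1.13, adjusted p = 0.0552, with the block 1.49e-05). Rgs9 and Arpp21 had log2 fold changes of −1.36 (adjusted p = 0.0615) and −1.33 (0.0538), which passed with the block at 0.0283 and 4.26e-05. Gnal, the olfactory-type G protein that couples dopamine and adenosine receptors to cyclase, was at 845, 669.5 and 693 CPM in wt and 666, 449 and 643 CPM in R6/1, and its log2 fold change was closer to 0 (−0.33, with the block adjusted p = 0.0395). In these genes too the pool numbered 2 was the lowest of its genotype.

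**Figure D3:**
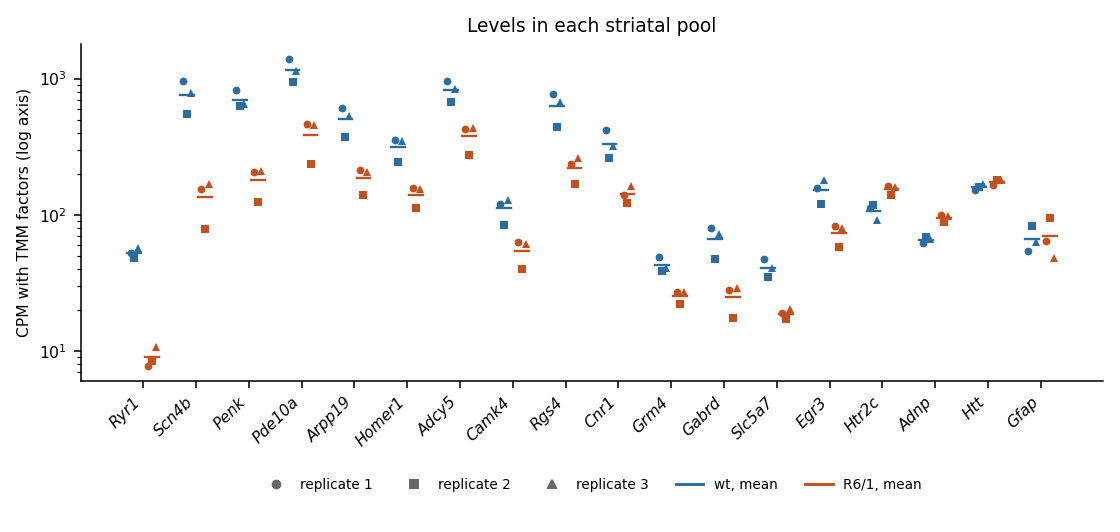
Level in CPM on a log axis of named genes in the 3 wt and 3 R6/1 striatal pools, each point 1 pool (wt blue, R6/1 orange, the marker shape giving the replicate number) and each line the mean. Ryr1 and Penk show wide gaps between the genotypes, and the pool numbered 2 is the lowest of its genotype for many MSN genes.

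The markers of the indirect pathway lay further from 0 than those of the direct pathway, although the difference between the lists was not tested. Penk, the enkephalin precursor, was at 826, 626 and 648 CPM in wt and 204, 124 and 208 CPM in R6/1 and fell by 1.97, SE 0.22, adjusted p = 0.0165 (log2; from wt to R6/1, mean and SD over 3 pools 699.9 ± 110.2 to 179 ± 47.5 CPM). It was the 1 gene downregulated of 7 indirect-pathway markers tested (median −1.27). With the block, 5 passed, among them Adora2a (193, 123 and 150.5 CPM in wt and 64.9, 31.2 and 63.2 CPM in R6/1), Gpr6 (35.3, 24.4 and 27.1 CPM in wt and 12.99, 6.39 and 13.7 CPM in R6/1) and Drd2 (156, 119.8 and 124 CPM in wt and 68.96, 34.5 and 62.7 CPM in R6/1). Of the 10 direct-pathway markers 0 were called by edgeR without the block, 5 lower and 1 higher had an unadjusted p under 0.05, and DESeq2 called 5 lower (median −0.50). With the block 5 passed. These were Drd1, at 262, 161 and 206 CPM in wt and 114, 58.5 and 111 CPM in R6/1 (log2 fold change −1.18, SE 0.11, adjusted p = 0.00136), Chrm4 (−1.12, SE 0.096, adjusted p = 5.43e-05), the dynorphin gene Pdyn (−0.96, SE 0.075, adjusted p = 3.44e-05), Plxnd1 (−0.86, SE 0.065, adjusted p = 2.92e-05) and Slc35d3 (−0.66, SE 0.13, adjusted p = 0.0203). Every pool of wt was above every pool of R6/1 for each of these 5. Tac1, the substance P precursor, was at 136, 106 and 105 CPM in wt and 107, 58.4 and 107 CPM in R6/1, with overlapping groups and an adjusted p of 0.498 (0.385 with the block). The Penk call ended without wt replicate 1 and other libraries (adjusted p up to 0.0976).

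Transcription factors of the MSN lineage had a median nearer to 0 than the shared MSN genes. Of 20 tested, edgeR called 0, with 6 lower and 2 higher at an unadjusted p under 0.05, and DESeq2 called 5 lower (median −0.33). With the block 4 were lower. Of these, Egr3, Egr1 and Nr4a1 are also induced by activity, and Bcl11b, or CTIP2, was at 361, 262 and 287 CPM in wt and 251, 141 and 238 CPM in R6/1 (log2 fold change with the block −0.56, SE 0.12, adjusted p = 0.0478). Foxp1, which is expressed in both kinds of MSN, was at 386, 315 and 348 CPM in wt and 287, 163 and 273 CPM in R6/1 (adjusted p = 0.229, with the block 0.0618). Isl1 of the direct pathway was at 14.2, 17.5 and 12.6 CPM in wt and 18.2, 16.9 and 19.6 CPM in R6/1 (adjusted p = 0.243, with the block 0.185).

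Interneuron genes were lower as well. Of 15 tested, 3 were downregulated, and 8 with the block, with 0 upregulated (median −0.61). Cholinergic interneurons need choline acetyltransferase (Chat), the choline transporter (Slc5a7) and the vesicular acetylcholine transporter (Slc18a3). Slc5a7 was at 46.9, 34.95 and 40.8 CPM in wt and 19.1, 17.02 and 20.3 CPM in R6/1 (log2 fold change −1.12, SE 0.12, adjusted p = 0.0102). Chat was at 9.89, 8.31 and 9.90 CPM in wt and 4.90, 3.74 and 4.38 CPM in R6/1, with no overlap between groups (log2 fold change −1.11, SE 0.15, adjusted p = 0.0165). Slc18a3 was at 3.53, 3.004 and 3.92 CPM in wt and 2.39, 1.22 and 1.41 CPM in R6/1 (log2 fold change −1.08, with the block adjusted p = 0.0172). Nos1, the neuronal nitric oxide synthase, was at 70.8, 58.1 and 69.1 CPM in wt and 43.03, 45.6 and 44.8 CPM in R6/1 (log2 fold change −0.57, SE 0.085, adjusted p = 0.0203). Somatostatin (Sst) and neuropeptide Y (Npy), which mark the same cells, passed with the block, at −0.83, SE 0.074, adjusted p = 6.92e-05 and −0.94, SE 0.12, adjusted p = 0.000646. Pvalb, the parvalbumin gene, was at 10.2, 13.5 and 25 CPM in wt and 10.1, 12.6 and 8.98 CPM in R6/1, and it did not pass (adjusted p = 0.374, with the block 0.5). The calls of Slc5a7, Chat and Nos1 ended in leave-one-out fits, wt replicate 1, wt replicate 3 and R6/1 replicate 1 each being enough (adjusted p up to 0.137).

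Among receptors for dopamine, adenosine and acetylcholine, edgeR called 0 of 12, with 6 lower at an unadjusted p under 0.05, and DESeq2 called 6. With the block 6 were lower (median −0.50). Besides Drd1, Drd2, Adora2a and Chrm4, these were the A1 adenosine receptor Adora1, at 188, 141 and 198 CPM in wt and 108, 116 and 121 CPM in R6/1, and the M1 muscarinic receptor Chrm1, at 136, 87.8 and 126 CPM in wt and 97.03, 69.4 and 101 CPM in R6/1. Of 20 receptors for opioids, cannabinoids and peptides, 3 were downregulated, and with the block 6 were lower and 1 higher. The cannabinoid receptor gene Cnr1, which acts on MSN terminals, was at 416, 261 and 321 CPM in wt and 140.4, 123 and 162 CPM in R6/1 (log2 fold change −1.23, SE 0.18, adjusted p = 0.0321). The delta opioid receptor Oprd1, which binds enkephalin, was at 23.4, 15.4 and 26.1 CPM in wt and 9.75, 6.97 and 10.3 CPM in R6/1 (log2 fold change −1.27, SE 0.23, adjusted p = 0.0474). The substance P receptor Tacr1, carried by cholinergic and nitric oxide interneurons, was at 25.7, 19.98 and 19.8 CPM in wt and 13.1, 9.03 and 12.9 CPM in R6/1 (log2 fold change −0.91, SE 0.17, adjusted p = 0.0419). The kappa receptor Oprk1, which binds dynorphin, passed with the block (−0.90, SE 0.098, adjusted p = 0.000386), and so did the nociceptin receptor Oprl1, which was higher (0.33, SE 0.079, adjusted p = 0.0261). The calls of Cnr1, Oprd1 and Tacr1 ended with 1 library left out, wt replicate 1 among them (adjusted p up to 0.227).

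Of the 12 serotonin receptors tested, 1 was upregulated and 0 were downregulated, 4 being lower at an unadjusted p under 0.05, and DESeq2 called 2 lower and 1 higher. Htr2c, a Gq-coupled receptor of neurons, was at 112, 117 and 91.5 CPM in wt and 162, 141 and 159.6 CPM in R6/1. Every R6/1 pool was above every wt pool, and it rose by 0.52, SE 0.10, adjusted p = 0.0454 (log2; from wt to R6/1, mean and SD over 3 pools 107 ± 13.7 to 154 ± 11.7 CPM). The call ended without wt replicate 1, and also without wt 3 or R6/1 1 (adjusted p up to 0.178). Htr1b, a Gi-coupled receptor on MSN terminals, was at 56.4, 46.2 and 46.5 CPM in wt and 31.9, 19.6 and 29.8 CPM in R6/1 and passed with the block (−0.90, SE 0.11, adjusted p = 0.00215). Of the 16 neuropeptide precursors, Penk was the 1 called, and Npy, Sst and Pdyn were added by the block (median −0.85).

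Downstream of the receptors, phosphodiesterases, G proteins and RGS proteins differed in their calls. RGS proteins speed up the turn-off of G proteins, and 4 of 16 were downregulated, with 8 under the block. Rgs11 was at 18.96, 15.9 and 20.1 CPM in wt and 6.80, 8.45 and 8.28 CPM in R6/1 (log2 fold change −1.22, SE 0.13, adjusted p = 0.0102), and Rgs14, known from limits on synaptic plasticity, was at 42.6, 25.9 and 36.5 CPM in wt and 15.8, 12.7 and 15.96 CPM in R6/1 (log2 fold change −1.24, SE 0.19, adjusted p = 0.0298). Rgs20 and Rgs10 fell less, with log2 fold changes of −0.55 (adjusted p = 0.045) and −0.45 (0.0472). Rgs4, whose promoter is shown above, was at 767, 438 and 669 CPM in wt and 236, 167 and 262 CPM in R6/1. It lay just over the threshold (adjusted p = 0.0514) and passed with the block (−1.48, SE 0.077, adjusted p = 6.05e-06). Gnb5, the beta subunit that pairs with Rgs9 and Rgs11, was at 204, 159.7 and 187 CPM in wt and 142, 105 and 139.5 CPM in R6/1 and passed with the block (−0.51, SE 0.06, adjusted p = 0.000367). Of the 15 adenylyl cyclases and G protein subunits, edgeR called 0, with 7 lower at an unadjusted p under 0.05 and 4 by DESeq2, and 6 passed with the block. The 18 phosphodiesterases had 0 calls, 6 lower and 1 higher at an unadjusted p under 0.05, 4 lower by DESeq2, and 7 lower and 1 higher with the block. Pde4d was the higher one, at 40.04, 41.5 and 46.7 CPM in wt and 54.8, 48.99 and 53.98 CPM in R6/1 (0.30, SE 0.071, adjusted p = 0.0255). The 4 RGS calls ended with 1 library left out, wt replicate 1 among them (adjusted p up to 0.23).

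Kinases and phosphatases of striatal signalling were a large group of decreases. Of 34 tested, 6 were downregulated, and 21 with the block (10 to 25 with both libraries of 1 number left out), with 0 upregulated in either fit (median −0.50). Ppp1r1a, the inhibitor 1 relative of DARPP-32, was at 54.4, 33.7 and 47.3 CPM in wt and 16.98, 18.02 and 17.7 CPM in R6/1 (log2 fold change −1.36, SE 0.17, adjusted p = 0.0165). Plk5, a member of the polo-like kinase family, was at 11.01, 5.46 and 11.1 CPM in wt and 3.49, 3.07 and 2.60 CPM in R6/1, and its log2 fold change was −1.58, SE 0.29, adjusted p = 0.045. Ppp3ca, the catalytic subunit of calcineurin, was the most abundant, at 2857, 2045 and 2519 CPM in wt and 1480, 1119 and 1507 CPM in R6/1 (log2 fold change −0.85, SE 0.15, adjusted p = 0.0419). Prkcb, protein kinase C beta, was at 762, 536 and 775 CPM in wt and 383, 308 and 411 CPM in R6/1 (log2 fold change −0.91, SE 0.17, adjusted p = 0.0492). For each of these genes every R6/1 pool lay below every wt pool. Dusp6, a phosphatase of the ERK kinases, was at 34.7, 30.4 and 40.04 CPM in wt and 23.6, 19.1 and 24.4 CPM in R6/1 (log2 fold change −0.65, SE 0.13, adjusted p = 0.0475), and Ptpn5 completed the 6. The calmodulin kinase cascade passed with the block, where Camk4 changed by −1.03, SE 0.061, Camkk2 by −0.99, SE 0.082, Camk2a by −0.62, SE 0.087 and Camk2b by −0.53, SE 0.06. The 6 calls ended when wt replicate 1, wt replicate 3 or R6/1 replicate 1 was left out (adjusted p up to 0.233).

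The other calcium release channels and pumps differed less than Ryr1. Of 19 tested, Ryr1 was the 1 downregulated, and 8 were lower with the block. Itpr1, the inositol trisphosphate receptor of MSNs, was at 1385, 935 and 1288 CPM in wt and 679, 436 and 752 CPM in R6/1 (−0.97, SE 0.073, adjusted p = 2.92e-05 with the block). The plasma membrane calcium pumps Atp2b1 and Atp2b2 passed with the block at −0.85, SE 0.063, adjusted p = 2.73e-05 and −0.63, SE 0.072, adjusted p = 0.000329. The reticular pump Atp2a2 was at 1029, 785 and 1085 CPM in wt and 684, 628 and 741 CPM in R6/1 (−0.49, SE 0.069, adjusted p = 0.00136 with the block). The related ryanodine receptors were called in neither fit. Ryr2 was at 131, 140.0 and 192 CPM in wt and 121, 154 and 142 CPM in R6/1 (adjusted p = 0.65, with the block 0.516), and Ryr3 at 161, 198 and 173 CPM in wt and 163, 139 and 157 CPM in R6/1 (adjusted p = 0.242, with the block 0.238).

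Potassium channels were the largest of the channel lists, and 5 of 82 were downregulated and 0 upregulated. With the block 25 were lower, 10 to 48 with both libraries of 1 number left out, and again 0 were higher. Kcnh4, an Elk-type channel, was at 23.02, 16.5 and 25.1 CPM in wt and 9.44, 5.92 and 9.09 CPM in R6/1 (log2 fold change −1.41, SE 0.22, adjusted p = 0.0321). Kcnip2, a subunit that sets the gating of A-type channels, was at 191, 135 and 169 CPM in wt and 88.9, 65.3 and 85.8 CPM in R6/1 (log2 fold change −1.04, SE 0.16, adjusted p = 0.0323). Both were lowest in the pool numbered 2 of each genotype. The leak channel Kcnk1 was at 89.8, 74.5 and 84.9 CPM in wt and 59.1, 55.1 and 58.9 CPM in R6/1 (log2 fold change −0.53, SE 0.081, adjusted p = 0.0229). Kcns2, a silent subunit, fell less, with a log2 fold change of −0.51 (adjusted p = 0.0475). With the block Kcnh3, Kcnj4 and Kcnq5 were also lower, the inward rectifier Kcnj4 at 139.8, 81.96 and 117 CPM in wt and 67.8, 44.95 and 72.4 CPM in R6/1 (−0.87, SE 0.073, adjusted p = 5.39e-05). Of 28 voltage-gated sodium and calcium channels and their auxiliary subunits, 2 were downregulated and 11 with the block, and 0 were upregulated. These 2 were Scn4b and Cacng4, an auxiliary subunit of AMPA receptors, at 119, 105 and 94.8 CPM in wt and 65.5, 56.5 and 69.1 CPM in R6/1 (log2 fold change −0.74, SE 0.10, adjusted p = 0.0165). Of the pore-forming subunits, Scn8a and Cacna1e passed with the block with small differences (−0.24, SE 0.068, adjusted p = 0.0488 and −0.27, SE 0.058, adjusted p = 0.0142). The channel calls of both lists ended with 1 library left out, wt replicate 1 among them (adjusted p up to 0.239).

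Glutamate receptors fell in 4 of 24 genes tested, 9 with the block, and 0 rose (median −0.19). Grik2, a kainate receptor subunit, was at 187, 159.5 and 172 CPM in wt and 115, 115 and 114 CPM in R6/1, and its 3 R6/1 pools were nearly equal (log2 fold change −0.59, SE 0.073, adjusted p = 0.0127). The wt spread was wider, but no pools overlapped. Grm4, a presynaptic Gi-coupled receptor, was at 48.99, 38.95 and 40.5 CPM in wt and 27.3, 22.2 and 27.04 CPM in R6/1 (log2 fold change −0.75, SE 0.11, adjusted p = 0.0227). The NMDA subunit Grin2c was at 34.9, 26.3 and 35.02 CPM in wt and 20.4, 20.1 and 21.04 CPM in R6/1 (log2 fold change −0.64, SE 0.12, adjusted p = 0.0355). Gria3, Grm3, Grm5, Grin1 and Grik3 were added by the block. The calls of these 3 genes ended when any of wt replicate 1, wt replicate 3 and R6/1 replicate 1 was dropped (adjusted p up to 0.212).

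GABA and glycine receptors were mixed. Of 22 tested, edgeR called 0, with 3 lower and 2 higher at an unadjusted p under 0.05, and 1 lower and 1 higher by DESeq2. With the block 2 were lower and 2 higher. Gabrd, the delta subunit of extrasynaptic tonic receptors, was at 80.1, 46.96 and 72.4 CPM in wt and 27.9, 17.4 and 29.1 CPM in R6/1, with a log2 fold change of −1.43 (adjusted p = 0.0709). With the block it was among the 5 smallest p-values of all genes (−1.42, SE 0.071, adjusted p = 2.83e-06). The glycine receptor subunit Glra3 was at 10.8, 15.7 and 12.9 CPM in wt and 19.3, 27.1 and 18.9 CPM in R6/1, higher in every R6/1 pool than in any wt pool (0.73, SE 0.1, adjusted p = 0.00107 with the block). Glra2 was higher and Gabra4 lower with the block. Of 28 genes of synaptic vesicle release, edgeR called 0, with 11 lower at an unadjusted p under 0.05 and 5 by DESeq2, and 5 were lower with the block. Cplx2, or complexin 2, was at 2074, 1354 and 1803 CPM in wt and 1222, 843 and 1175 CPM in R6/1 (−0.69, SE 0.064, adjusted p = 8.86e-05 with the block), and Gad1, which makes GABA, was at 514, 428 and 508 CPM in wt and 435, 360.5 and 436 CPM in R6/1 (−0.24, SE 0.057, adjusted p = 0.0261 with the block).

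**Figure D4:**
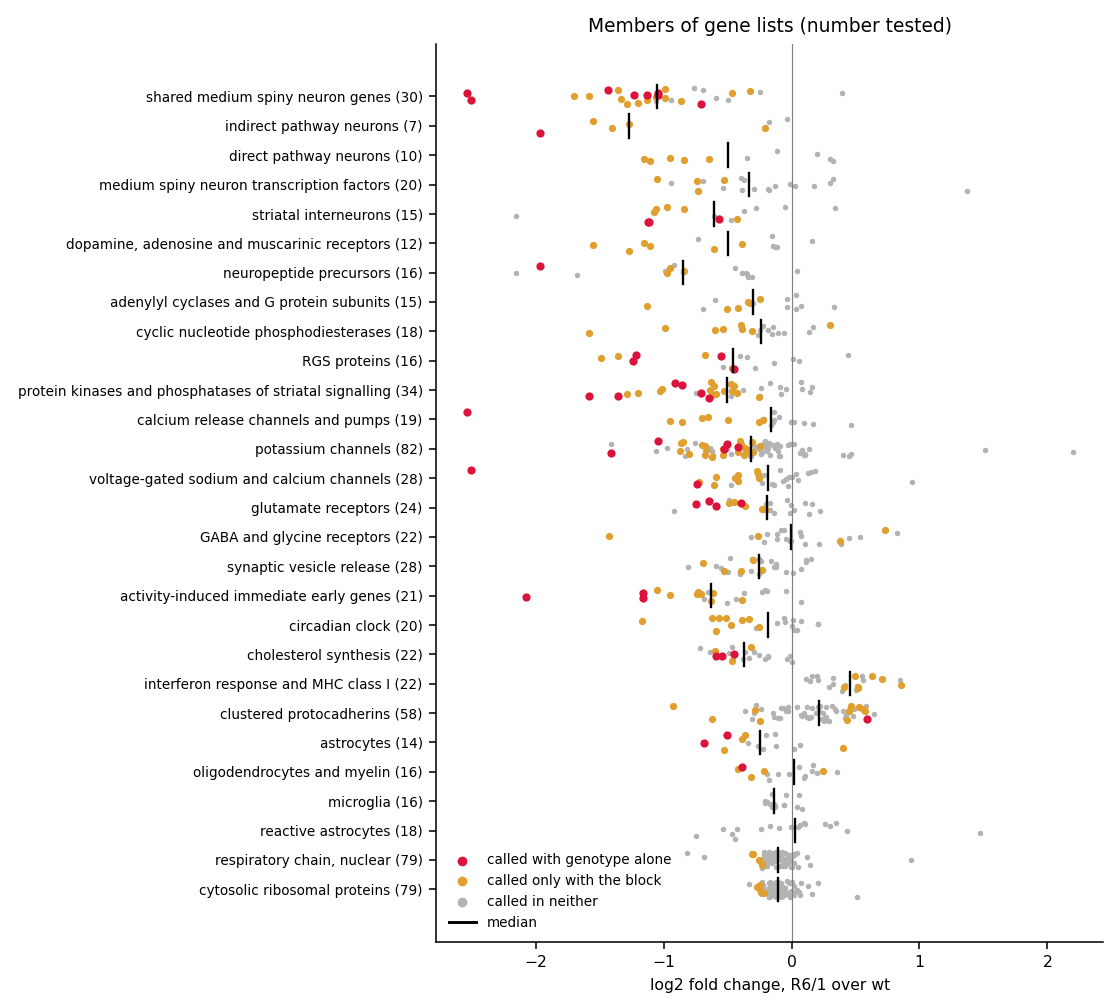
Log2 fold change of R6/1 over wt striatum for each tested gene (points) of the gene lists, with the list median (bar), genes called with genotype alone in red, those called only with the block in orange and those called in neither in grey. The shared MSN genes centre near −1.05 and the interferon and MHC class I genes near 0.46, while the ribosomal proteins lie close to 0.

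Immediate early genes, which neurons switch on after activity and calcium entry, were lower in 3 of 21 tested. With the block 11 were lower, 7 to 16 with both libraries of 1 number left out, and 0 were higher in either fit (median −0.63). Egr2 was at 5.36, 6.91 and 8.03 CPM in wt and 1.17, 1.30 and 2.33 CPM in R6/1 and fell by 2.08 on the log2 scale (SE 0.27, adjusted p = 0.015). Nptx2, a secreted pentraxin that gathers AMPA receptors, was at 24.9, 15.4 and 25.4 CPM in wt and 9.13, 10.9 and 9.20 CPM in R6/1 (log2 fold change −1.16, SE 0.20, adjusted p = 0.0376), and Homer1 was the third. Their groups did not overlap. Arc, whose product removes AMPA receptors from the surface, was at 46.5, 62.6 and 79.04 CPM in wt and 21.8, 28.8 and 46.5 CPM in R6/1. Its wt and R6/1 values differed within each number by a like factor (−0.95, adjusted p = 0.187, and with the block −0.99, SE 0.082, adjusted p = 5.17e-05). Npas4 was at 14.2, 14.8 and 18.7 CPM in wt and 6.38, 9.16 and 13.5 CPM in R6/1 (−0.75, SE 0.14, adjusted p = 0.00685 with the block). Fos was at 7.36, 10.4 and 10.4 CPM in wt and 4.78, 7.06 and 12.4 CPM in R6/1, and it did not pass (adjusted p = 0.782, with the block 0.39). The 3 calls ended with 1 library left out, wt replicate 1 among them (adjusted p up to 0.196).

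Circadian clock genes had 0 calls of 20 by edgeR, 9 lower at an unadjusted p under 0.05 and 5 by DESeq2. With the block 9 were lower and 0 higher, 3 to 9 with both libraries of 1 number left out (median −0.18). Npas2, a partner of BMAL1 in the forebrain, was at 63.9, 39.95 and 59.8 CPM in wt and 23.8, 18.02 and 30.99 CPM in R6/1 (−1.17, SE 0.092, adjusted p = 5.32e-05 with the block). The clock output genes Dbp and Hlf passed with the block at −0.48, SE 0.063, adjusted p = 0.000899 and −0.50, SE 0.063, adjusted p = 0.000582, and the repressor Nr1d1 at −0.60, SE 0.086, adjusted p = 0.00238. Per1 was at 49.2, 40.1 and 52.8 CPM in wt and 35.2, 32.3 and 41.05 CPM in R6/1 (with the block adjusted p = 0.00525), whereas Per2 was at 27.1, 34.3 and 23.6 CPM in wt and 33.8, 25.9 and 26.3 CPM in R6/1 (with the block 0.965).

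Neurotrophic factors and receptors had 0 calls of 20 by edgeR, 11 lower at an unadjusted p under 0.05 and 6 by DESeq2. With the block 5 were lower. Ntrk2, the receptor of brain-derived neurotrophic factor, was at 698, 658 and 723 CPM in wt and 516, 612 and 523 CPM in R6/1 (−0.33, SE 0.077, adjusted p = 0.0243 with the block). Bdnf itself, which reaches the striatum mostly as protein from the cortex, was at 16.1, 9.51 and 16.2 CPM in wt and 6.31, 11.1 and 8.82 CPM in R6/1 (adjusted p = 0.23, with the block 0.396). Of 18 genes of huntingtin and its partners, 0 were called by edgeR, with 2 lower and 4 higher at an unadjusted p under 0.05 and 1 lower by DESeq2. With the block Rasd2, or Rhes, a small GTPase enriched in MSNs, was lower (−1.11, SE 0.17, adjusted p = 0.0438), and Hap1 was higher, at 88.6, 134 and 106 CPM in wt and 121, 169 and 111 CPM in R6/1 (0.29, SE 0.074, adjusted p = 0.0372). Of 12 modifiers of repeat expansion, which are mostly DNA mismatch repair genes, 0 were called in either edgeR fit and 0 by DESeq2. In the fit without the block 6 were higher and 0 lower at an unadjusted p under 0.05, against 1395 and 1923 of all 16728 genes. Msh3 was at 32.2, 26.5 and 27.1 CPM in wt and 30.7, 27.3 and 32.1 CPM in R6/1 and Fan1 at 11.4, 9.91 and 11.3 CPM in wt and 10.4, 12.9 and 11.4 CPM in R6/1.

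Markers of the other cell types in the dissection were set beside these results. Of 14 cortical and other glutamatergic markers, 1 was downregulated, Ctxn1, at 204, 153 and 195 CPM in wt and 111, 87.5 and 115 CPM in R6/1 (log2 fold change −0.81, SE 0.14, adjusted p = 0.0409), and with the block Lamp5 was added. Their summed CPM was 1069, 658.6 and 1241 in wt and 567.8, 689.7 and 687.5 in R6/1. The low wt value was that of the pool numbered 2, and the part of cortical RNA in the decreases above was not tested. Of the 13 septal, pallidal and thalamic markers edgeR called 0, 1 was lower at an unadjusted p under 0.05 and DESeq2 called 1 lower. With the block Prox1 was higher (0.53, SE 0.08, adjusted p = 0.00185). Their sum was high in both pools numbered 2, as given above, and its part in the results was not tested. Without both of these pools, 1658 genes were called lower and 1004 higher, against 220 and 22 with them. The block without them called 13.7% of genes lower and 8.99% higher (22.7% in either direction). The Ctxn1 call ended without wt replicate 1, and also without wt 3 or R6/1 1 (adjusted p up to 0.192).

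**Figure D5:**
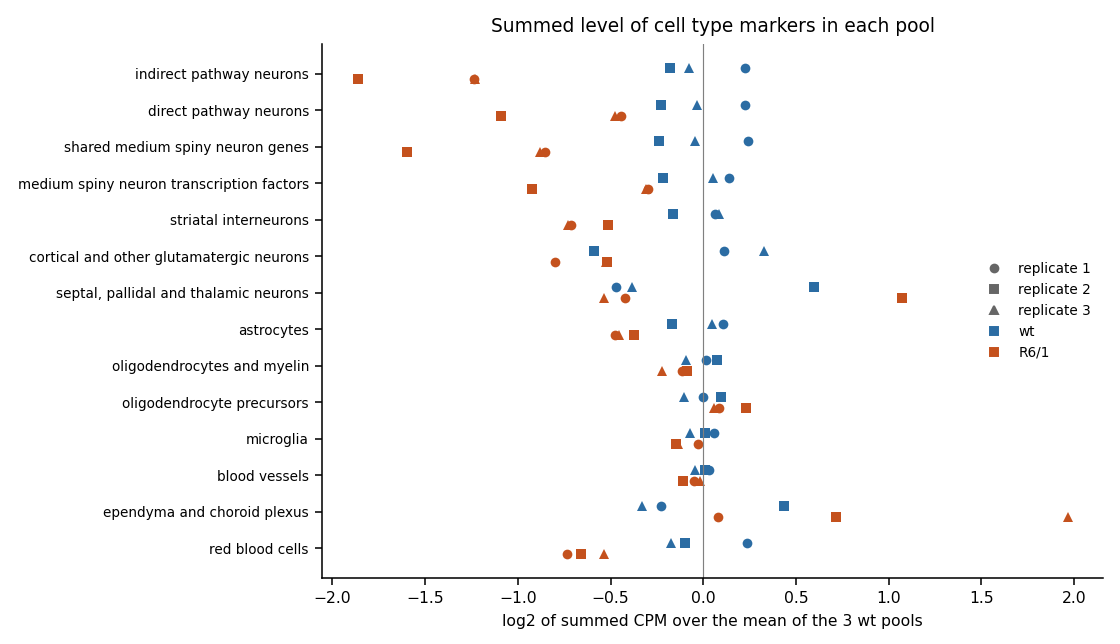
Log2 of the summed CPM of marker lists in each of the 6 striatal pools over the mean of the 3 wt pools, each point 1 pool (wt blue, R6/1 orange, the marker shape giving the replicate number). The MSN lists are lower in every R6/1 pool than in any wt pool, septal, pallidal and thalamic markers peak in both pools numbered 2, and ependymal and choroid plexus markers peak in the R6/1 pool numbered 3.

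Astrocyte genes fell in 2 of 14 tested. Aldoc, a glycolytic enzyme of astrocytes, was at 551, 438 and 542 CPM in wt and 322, 341 and 287 CPM in R6/1 (log2 fold change −0.69, SE 0.11, adjusted p = 0.0229). Glul, which makes glutamine from glutamate, was at 1693, 1377 and 1629 CPM in wt and 1067, 1152 and 1096 CPM in R6/1 (log2 fold change −0.50, SE 0.095, adjusted p = 0.0419). Both were below every wt pool in every R6/1 pool. With the block 5 were lower and 1 higher, 0 to 10 lower with both libraries of 1 number left out. Slc1a2, the main glutamate transporter of the forebrain, was at 4716, 3520 and 4457 CPM in wt and 2916, 2862 and 3033 CPM in R6/1, with no overlap (adjusted p = 0.0589, with the block 0.00292). S100b was the higher one, at 93.7, 143 and 89.2 CPM in wt and 142, 167 and 122 CPM in R6/1 (0.42, SE 0.073, adjusted p = 0.00529 with the block). Gfap, the marker of reactive astrocytes, was at 54.2, 82.2 and 63.3 CPM in wt and 64.5, 95.4 and 48.2 CPM in R6/1, with overlapping groups (adjusted p = 0.934, with the block 0.931). Of 18 genes of reactive astrocytes, edgeR called 0 in either fit and DESeq2 0, with 1 lower and 1 higher at an unadjusted p under 0.05. The Aldoc and Glul calls ended without wt replicate 1, and also without wt 3 or R6/1 1 (adjusted p up to 0.224).

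General markers of microglia held no call. Of the 16 tested edgeR called 0 in either fit and DESeq2 0, with 2 lower at an unadjusted p under 0.05. Of 13 genes of activated microglia, edgeR called 0, 1 was lower at an unadjusted p under 0.05, DESeq2 called 0, and with the block Apoe was lower, at 877, 1024 and 885 CPM in wt and 786, 853 and 709 CPM in R6/1 (−0.25, SE 0.062, adjusted p = 0.031). Cx3cr1, the fractalkine receptor of microglia, was at 71.1, 63.7 and 68.4 CPM in wt and 62.2, 55.9 and 57.5 CPM in R6/1 (adjusted p = 0.16). Genes of the interferon response and MHC class I were the one list of the 48 in which every gene tested, 22 of 22, had a positive log2 fold change (median 0.46). edgeR called 0, with 8 higher at an unadjusted p under 0.05, and DESeq2 called 3 higher. With the block 7 were higher, but 0 to 10 with both libraries of 1 number left out. Ifit3, an interferon-induced protein, was at 6.71, 14.97 and 7.31 CPM in wt and 15.6, 22.01 and 15.1 CPM in R6/1, and the R6/1 pools numbered 1 and 3 were only just above the wt pool numbered 2 (0.91, SE 0.14, adjusted p = 0.00226 with the block). The class I genes H2-K1 and H2-D1, which share sequence with their paralogs, were at 13.3, 17.7 and 14.4 CPM in wt and 20.8, 20.6 and 19.1 CPM in R6/1 and at 15.9, 24.4 and 22.9 CPM in wt and 29.4, 31.5 and 29.6 CPM in R6/1.

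Genes of oligodendrocytes and their precursors were called in both directions. Of 16 myelin genes 1 was downregulated, Fa2h, which makes hydroxylated myelin lipids, at 38.7, 36.8 and 39.4 CPM in wt and 29.7, 29.2 and 28.7 CPM in R6/1 (log2 fold change −0.39, SE 0.069, adjusted p = 0.0346). With the block 4 were lower and 1 higher. Mobp, a myelin structural gene, was at 1355, 1328 and 1180 CPM in wt and 952, 1037 and 899 CPM in R6/1 (−0.42, SE 0.063, adjusted p = 0.00194), and Mag, an adhesion molecule of myelin, was higher, at 148, 175 and 148 CPM in wt and 182, 197 and 179.8 CPM in R6/1 (0.25, SE 0.058, adjusted p = 0.0216). Of 10 precursor genes edgeR called 0, with 2 higher at an unadjusted p under 0.05 and 1 higher by DESeq2. With the block Enpp6, a gene of newly forming oligodendrocytes, was higher, at 18.8, 27.1 and 18.9 CPM in wt and 33.3, 36.2 and 32.1 CPM in R6/1 (0.66, SE 0.094, adjusted p = 0.00149). The Fa2h call ended without wt replicate 1, and also without wt 3 or R6/1 1 (adjusted p up to 0.173), and with library totals it was lost while the list median moved from 0.02 to 0.13.

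Genes of red blood cells were lower in the R6/1 pools. Of 5 genes of red blood cells 2 were downregulated, Hbb-bs at 69.2, 53.6 and 50.4 CPM in wt and 34.2, 37.2 and 37.5 CPM in R6/1 (log2 fold change −0.67, SE 0.12, adjusted p = 0.036) and Hba-a2 at 40.5, 31.5 and 36.6 CPM in wt and 22.1, 21.9 and 26.1 CPM in R6/1 (log2 fold change −0.63, SE 0.11, adjusted p = 0.0336). These globin genes are near-identical to their paralogs, and how reads were divided is uncertain. Their summed CPM was 121.9 to 161.8 in wt and 82.4 to 94.9 in R6/1. Of 16 vessel genes edgeR called 0, with 3 lower at an unadjusted p under 0.05 and 0 by DESeq2, and with the block Cldn5, a tight junction gene, was lower (−0.36, SE 0.09, adjusted p = 0.032). The vessel median was −0.09 and turned to 0.02 with library totals. The 13 ependymal and choroid plexus genes had 0 calls in either edgeR fit, 0 at an unadjusted p under 0.05 and 0 by DESeq2. Their sum was 169.5 in the R6/1 pool numbered 3 and 34.5 to 71.2 in the others. The globin calls ended without wt replicate 1, and also without wt 3 or R6/1 1 (adjusted p up to 0.184).

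Cholesterol synthesis fell in 3 of 22 genes tested and 0 rose (median −0.37). Msmo1, a sterol demethylase, was at 97.3, 74.7 and 91.4 CPM in wt and 55.2, 61.04 and 57.98 CPM in R6/1 (log2 fold change −0.59, SE 0.099, adjusted p = 0.0289). Fdft1, or squalene synthase, was at 78.2, 61.8 and 73.2 CPM in wt and 44.6, 53.9 and 47.3 CPM in R6/1 (log2 fold change −0.54, SE 0.10, adjusted p = 0.0446). Srebf2, the transcription factor that drives the pathway, was at 174, 150.5 and 184 CPM in wt and 118, 125 and 128 CPM in R6/1 (log2 fold change −0.45, SE 0.084, adjusted p = 0.0386). With the block 6 were lower, 1 to 18 with both libraries of 1 number left out, and DESeq2 called 9. Cyp46a1, which clears cholesterol from neurons, passed with the block, at 133, 110.0 and 145 CPM in wt and 92.2, 71.8 and 92.6 CPM in R6/1 (−0.60, SE 0.059, adjusted p = 0.000124). The pathway is active in astrocytes, whose summed marker level was 7260 to 8804 CPM in wt and 5869 to 6294 CPM in R6/1, and the part of this in the result was not tested. The 3 calls ended without wt replicate 1, and also without wt 3 or R6/1 1 (adjusted p up to 0.239), and with library totals 1 of the 22 was called.

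Genes of energy metabolism and housekeeping held few calls. Of 79 nuclear genes of the respiratory chain edgeR called 0, with 19 lower and 1 higher at an unadjusted p under 0.05 and 1 lower by DESeq2, and the block added 5. Their median was −0.11, and 0.00 with library totals. The 13 mitochondrial genes had a median of −0.22 (−0.11 with library totals), and 12 of the 13 differences were negative. With the block 4 were lower, and DESeq2 called 5 lower. Without the block 1 was downregulated, mt-Nd6, at 437, 386 and 363 CPM in wt and 278, 272 and 312 CPM in R6/1 (log2 fold change −0.46, SE 0.092, adjusted p = 0.0474). It lies on the strand opposite to the other coding genes, and the call ended without wt replicate 1, and also without wt 3 or R6/1 1 (adjusted p = 0.224 at most) and with library totals. The 79 cytosolic ribosomal proteins had 0 calls, 11 lower at an unadjusted p under 0.05 and 0 by DESeq2, and 5 were lower with the block, from a median of −0.11 that was 0.00 with library totals. Chaperones had 0 calls of 22, with 3 lower and 2 higher at an unadjusted p under 0.05 and 2 lower by DESeq2, and with the block 2 were lower and 1 higher. Lysosome and autophagy genes had 0 of 30, with 5 higher at an unadjusted p under 0.05 and 0 by DESeq2, and Gaa was higher with the block. The medians of these last lists were −0.001 and 0.03, and they were 0.11 and 0.14 with library totals.

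Of the reference genes to which the study normalized, Tbp was at 35.3, 32.7 and 36.2 CPM in wt and 33.4, 32.3 and 33.5 CPM in R6/1 (adjusted p = 0.635). Eef2 was at 942, 958 and 937 CPM in wt and 960.1, 927 and 930.4 CPM in R6/1 (adjusted p = 0.959). The study also names Gapdh and Actb, which it reports as altered in its RNA-seq data, and their values are not given here. Polr2a was at 68.5, 116 and 78.98 CPM in wt and 149.9, 143 and 151 CPM in R6/1. The study lists primers for Polr2a and reports it as upregulated in the R6/1 retina, and does not use it as a reference. Every R6/1 pool of Polr2a was above every wt pool, as for 12.5% of all genes tested, and it was not called (adjusted p = 0.101). Hmox1, heme oxygenase 1, was at 2.35, 2.10 and 3.08 CPM in wt and 3.92, 3.02 and 2.65 CPM in R6/1 (adjusted p = 0.442), and A2m, a protease inhibitor used as a gliosis marker, was at 1.41, 3.35 and 1.27 CPM in wt and 1.66, 4.03 and 1.95 CPM in R6/1 (adjusted p = 0.742). With the block the adjusted p-values of Tbp, Eef2, Polr2a, Hmox1 and A2m were 0.6, 0.944, 0.14, 0.385 and 0.366.

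Further families held 1 or 2 downregulated genes each. Of 6 neprilysin-family peptidases tested 2 were downregulated, Phex and Ecel1, the latter at 19.5, 20.1 and 21.1 CPM in wt and 7.91, 10.8 and 8.82 CPM in R6/1 (log2 fold change −1.14, SE 0.12, adjusted p = 0.0102), while Ece2 was higher with the block, at 25.4, 45.1 and 26.2 CPM in wt and 46.1, 59.5 and 46.03 CPM in R6/1 (0.68, SE 0.095, adjusted p = 0.00225). Of 28 glutathione peroxidases and transferases 2 were downregulated, Gpx6 and Gstm1, the latter at 118, 116 and 111 CPM in wt and 87.3, 94.9 and 80.5 CPM in R6/1 (log2 fold change −0.39, SE 0.074, adjusted p = 0.0419). Gpx1, the common cytosolic peroxidase, was at 54.5, 57.02 and 48.9 CPM in wt and 58.1, 46.7 and 58.6 CPM in R6/1 (adjusted p = 0.931). Of 44 collagen chains 1 was downregulated, Col6a4, at 9.24, 6.86 and 7.07 CPM in wt and 2.64, 2.06 and 3.30 CPM in R6/1 (log2 fold change −1.54, SE 0.21, adjusted p = 0.0165). With the block 3 were lower and 2 higher, Col3a1 among the latter (0.99, SE 0.26, adjusted p = 0.0378). The calls of Ecel1, Gstm1 and Col6a4 ended without wt replicate 1, and also without wt 3 or R6/1 1 (adjusted p up to 0.226).

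The upregulated genes were few, and most changed by a moderate factor. The largest difference was that of Gm8203, a processed pseudogene, which had 0 counts in the 3 wt pools and 39 to 94 counts in the R6/1 pools. Its level in R6/1 was at least 16.6-fold higher than a floor of 3 counts per library (0.169 CPM in wt). Its reads may be shared with the parent gene, so the identity of the transcript is uncertain. Tpx2, which builds the mitotic spindle, was at 3.12, 4.71 and 2.90 CPM in wt and 9.13, 7.02 and 7.52 CPM in R6/1 and rose by 1.13 on the log2 scale (SE 0.21, adjusted p = 0.0376). Asl, argininosuccinate lyase of the urea cycle, was at 7.71, 10.1 and 8.82 CPM in wt and 17.1, 14.2 and 15.6 CPM in R6/1 (log2 fold change 0.81, SE 0.13, adjusted p = 0.0235). Adnp, a chromatin and neuroprotective factor, was at 61.6, 68.4 and 66.8 CPM in wt and 99.8, 88.6 and 97.4 CPM in R6/1, and its groups were far apart for their spread (log2 fold change 0.54, SE 0.073, adjusted p = 0.0165). Chuk, the IKK alpha kinase of NF-kB signalling, was at 57.9, 63.2 and 57.4 CPM in wt and 81.2, 75.8 and 82.6 CPM in R6/1 (log2 fold change 0.42, SE 0.069, adjusted p = 0.0279). For all of these genes the lowest R6/1 pool was above the highest wt pool, which the rule for naming them required. Gng3, a G protein gamma subunit of neurons, was at 102, 110.4 and 110.0 CPM in wt and 142, 134 and 139 CPM in R6/1 (log2 fold change 0.37, SE 0.064, adjusted p = 0.0333). Rrm2b, Nagk, Anapc1, Nufip2 and Slc6a15 rose by 0.44, 0.54, 0.42, 0.38 and 0.31. Armcx5 rose by 0.45 and shares its locus on the X chromosome with Gprasp1, so reads of these genes may not be told apart. All of these calls ended in leave-one-out fits, wt replicate 1, wt replicate 3 and R6/1 replicate 1 each being enough (adjusted p up to 0.22).

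Mitotic genes were 1 lower, Traip, and 2 higher of 20 tested. The higher ones were Tpx2 and Hjurp, a chaperone of the centromeric histone, at 61.5, 80.7 and 68.2 CPM in wt and 101, 104 and 96.2 CPM in R6/1 (log2 fold change 0.52, SE 0.097, adjusted p = 0.0412). The proliferation marker Mki67 was at 5.83, 6.91 and 4.53 CPM in wt and 5.33, 5.08 and 7.46 CPM in R6/1 (adjusted p = 0.938) and Top2a at 4.77, 5.36 and 4.41 CPM in wt and 4.78, 4.12 and 6.11 CPM in R6/1 (adjusted p = 0.936), and neither passed. With the block Plk1 was also lower (−1.60, SE 0.43, adjusted p = 0.0396). The 3 calls ended with 1 library left out, wt replicate 1 among them (adjusted p up to 0.22).

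Clustered protocadherins, adhesion molecules whose combinations give each neuron a surface identity, had 1 gene upregulated of 58 tested, and 7 higher and 4 lower with the block (median 0.21). Pcdhb22 was at 17.7, 20.1 and 18.9 CPM in wt and 29.3, 26.9 and 29.4 CPM in R6/1 (log2 fold change 0.59, SE 0.086, adjusted p = 0.0188). Of the 58, 40 had a positive log2 fold change. With the block Pcdhb12, Pcdhb15, Pcdhb16, Pcdhb21, Pcdha9 and Pcdhgb1 were also higher, by 0.46, SE 0.12 to 0.56, SE 0.15 for the beta genes, and Pcdhac1, Pcdhb8, Pcdhga6 and Pcdhgc5 were lower. Without both libraries of 1 number, the block called 0 to 20 of them higher. Genes of each cluster share sequence, and the division of reads among them is uncertain. The Pcdhb22 call ended without wt replicate 1, and also without wt 3 or R6/1 1 (adjusted p up to 0.108).

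Developmental homeobox and T-box factors, which mature striatal neurons mostly keep silent, had 0 calls of 37 by edgeR, 6 higher at an unadjusted p under 0.05 and 2 higher by DESeq2. With the block Onecut1 was higher, at 0.118, 0.751 and 0.0604 CPM in wt and 1.66, 2.27 and 1.57 CPM in R6/1 (2.59, SE 0.50, adjusted p = 0.0113). Its R6/1 pools were all above its wt pools, at a low level. The list median was 0.48, with 27 positive and 10 negative differences.

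Other genes called higher with the block had moderate levels and changes. Pcdh19, a nonclustered protocadherin of the X chromosome, was at 32.7, 52.6 and 36.1 CPM in wt and 65.8, 80.6 and 63.3 CPM in R6/1 (0.80, SE 0.08, adjusted p = 0.000148). Gprasp1, which sorts D2 receptors and other receptors to lysosomes, was at 673, 852 and 678 CPM in wt and 989.9, 1030 and 974 CPM in R6/1 (0.45, SE 0.07, adjusted p = 0.00244). Ahi1, a ciliary gene that binds Hap1, was at 266, 380.5 and 280.2 CPM in wt and 421, 463 and 409.7 CPM in R6/1 (0.50, SE 0.075, adjusted p = 0.00245). Nexmif and Rab9b, both on the X chromosome, changed by 0.44, SE 0.059 and 0.47, SE 0.063. Rnf213, a large interferon-induced ubiquitin ligase, was at 16.1, 24.4 and 19.5 CPM in wt and 25.4, 32.4 and 28.5 CPM in R6/1 (0.53, SE 0.086, adjusted p = 0.00305). In each of these 6 genes the pool numbered 2 was the highest of its genotype. Without the block their adjusted p-values were 0.0958, 0.0706, 0.109, 0.0666, 0.0698 and 0.128, in the order named.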

How the data were processed

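Striatal RNA of wt and R6/1 mice was compared in 3 libraries per genotype, grouped by the GEO labels. According to the paper and the labels, the authors made stranded, paired-end mRNA libraries with reads of 150 bases, used CASAVA for base calls and Trimmomatic for trimming, and quantified transcripts of GRCm38/mm10 with Salmon. Versions and the summing of transcripts per gene are not given in the sources used here. The deposited values are estimated counts per gene, given as whole numbers and not normalized, and no column was left unmapped (0). Counts set the precision: the range of total counts per genotype is given above, and arms hold 3 pools.

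Only genes reaching 10 counts in the sum of the 6 libraries were tested. The test was the robust quasi-likelihood F-test of edgeR 4.0.16 (R 4.3.3) with TMM factors and genotype as the only term, adjusted by Benjamini-Hochberg over all 16728 genes. The authors used DESeq2, with a design not given in the sources used here, and DESeq2 without a block was an alternative (version 1.42.0). Others were the replicate number as a block, limma-voom (limma 3.58.1), other scalings, filters and spread estimates, 1 fit of all 12 libraries, an adjusted p under 0.01, and leaving out each library or both libraries numbered 2. The block without both libraries numbered 1, or 3, was added after seeing the data. Where an arm kept 2 pools or fewer, the spread was pooled. The block uses up degrees of freedom, so its p-values rest more on spread shared between genes than those of genotype alone. The scripts were tested on simulated data. Tables and plots used Python 3.11.15, numpy 2.4.6, pandas 2.3.3 and matplotlib 3.10.9.

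Whether equal replicate numbers pair pools was checked on 10470 genes whose mean log2 CPM exceeded 3 (prior count 2), by the correlation of each pool's deviations from its genotype mean. The correlations of wt with R6/1 were 0.275, 0.332 and 0.254 for numbers 1, 2 and 3, all over the limit of 0.1, and the others ran from −0.407 to 0.278. The highest of these, wt 1 with R6/1 3, was as high as that of number 1, so the check does not set number 1 apart. Deviations are taken from the mean of the same 3 pools, so these correlations are not independent of each other. The pairing comes from this check, since no source states it, and p-values measure the spread between pools.

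The members, the 48 gene lists and the tests were chosen with earlier results of these data known. Named genes were those the paper names for striatal RNA, the 20 genes with the smallest p in each direction and fit (mean of at least 1 CPM, groups not overlapping), and up to 8 members of each list and fit, or all members of lists of 20 or fewer. Camk2a, Fos, Gpx1, Npas4, Ppp1r1b, Scn8a, Lynx1 and Fam107a fall outside this rule and were chosen after their values were seen. Promoters came from RefSeq, 1 per gene and the farthest upstream. Positions are those of GRCm38, for 17527 of the 17579 genes. The transgene was not analysed here, and some members of the lists are counted but not reported by name.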

Additional observations from a re-analysis of the deposited data

How the results depend on the processing

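The count of 220 lower and 22 higher genes depended on the libraries and on the block. With the replicate block 1190 were lower and 473 higher. DESeq2 gave 805 and 177, and DESeq2 with the replicate block 875 and 160. The fit of all 12 libraries gave 887 and 413. Leaving out both libraries numbered 2 gave 1658 and 1004, and with the replicate block 2221 and 1455. The replicate block without both libraries numbered 3 gave 663 and 82, and without both numbered 1 it gave 313 and 16. Library totals gave 209 lower and 220 higher, and with the replicate block 799 and 2074, after the median of all genes moved to 0.12. At an adjusted p under 0.01, 7 genes were lower and 0 higher by edgeR, against 1923 and 1395 at an unadjusted p under 0.05. Leaving out 1 library gave 1 to 1201 lower and 0 to 715 higher genes. The lowest counts were those without wt replicate 1 (1 and 0), wt replicate 3 (5 and 0), R6/1 replicate 1 (6 and 0) and R6/1 replicate 3 (26 and 1). Counts stayed within 1.5 times under limma-voom (196 and 22), DESeq2 size factors (205 and 22) and the filters (224 and 23, and 220 and 22). The same held for the non-robust spread (253 and 21) and without R6/1 replicate 2 (216 and 29). It also held for the replicate block without both libraries numbered 1 (313 and 16). The causes were not tested.

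Of 648 genes taken for these checks, 95 were called, and 22 alternatives were run. The replicate block added 181 calls among them and ended 2, Lynx1 and Fam107a, and it changed no other call of theirs. Library totals added 21 and ended 11. Genes of the regions around the striatum reversed. Without both libraries numbered 2, Prkcd was at −0.51 and Slc17a6 at −0.67 (log2 fold change). With the replicate block and without both, Calb2 was at −0.55, Prkcd at −0.51 and Slc17a6 at −0.67, where their values over all 6 libraries were positive. With 3 pools per genotype, small differences could not be detected, and an uncalled gene is not shown to be unchanged. For genes of few counts, such as Gpx6 in R6/1, counting error adds to this. Since a pool averages 3 or 4 mice, no value here bears on single animals.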

Other observations

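Some genes of the regions around the striatum divided the pools by number rather than by genotype. Zic1, a factor of septal and other medial neurons, was at 26.3, 66.2 and 24.8 CPM in wt and 25.7, 101 and 19.9 CPM in R6/1. Tcf7l2, a factor of thalamic neurons, was at 7.54, 27.3 and 9.42 CPM in wt and 9.87, 39.7 and 9.52 CPM in R6/1, and Slc17a6, the vesicular glutamate transporter of subcortical neurons, was at 16.3, 54.4 and 22.3 CPM in wt and 10.6, 94.1 and 13.6 CPM in R6/1. Calb2, or calretinin, which is also on the list of striatal interneurons, was at 6.54, 34.5 and 8.27 CPM in wt and 5.33, 51.7 and 4.76 CPM in R6/1. These 4 genes were taken from the 21 that were over 2 times every other library in both pools numbered 2. Their pattern is therefore how they were chosen and does not describe other markers of these regions. None of the 4 was called in the fit of genotype alone (adjusted p = 0.874, 0.829, 0.893 and 0.918).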
